A study of Drosophila melanogaster with 4 samples.

Results

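The mRNAs of 10 cell cycle regulators, chosen by name as genes that drive the divisions of the germline cyst and the meiosis of the oocyte, were followed among the 17023 genes counted in Drosophila melanogaster ovaries. They are the mitotic cyclin genes CycA, CycB and CycB3, the kinase gene Cdk1, the phosphatase genes stg and twe, the G1/S cyclin gene CycE, the genes fzy and cort of activators of the anaphase-promoting complex (APC/C), and the kinase gene png. Poly(A) RNA was sequenced from 2 pulldowns with a mouse antibody against pseudouridine, an isomer of uridine, and from 2 inputs without antibody, all from WT ovaries. The study's methods describe the input as part of the homogenate set aside before antibody was added, and both groups carry the replicate numbers 1 and 3. The methods describe WT ovaries as taken from UAS-Dcr2;nosGAL4 flies (a germline GAL4 driver) aged 2 to 3 days and then fattened overnight, the condition used for late-stage egg chambers, and the section on the pulldowns does not repeat this. Libraries from the IgG mock pulldown of the methods were not analysed here, and the ratios below therefore include any RNA retained nonspecifically.

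Entry into M phase is driven by Cdk1 bound to a mitotic cyclin. Cdc25 phosphatases, String (stg) in mitosis and Twine (twe) in meiosis, activate the kinase, and the APC/C ends M phase by sending cyclins to the proteasome once it is bound by Fizzy (fzy) or, in female meiosis, by Cortex (cort). Oocytes and nurse cells of the fly store many of these mRNAs, and the PAN GU kinase (png, with plu and gnu) allows stored cyclin B mRNA to be translated at egg activation.

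The 4 libraries differed in depth, with 984979 and 6338436 counts in pulldowns 1 and 3 and 4245717 and 12684875 counts in inputs 1 and 3. Pulldown 1 stood apart from the other libraries on the first principal component of log2 CPM (counts per 1000000 counts of the library), at -160.4 against 22.1 to 70.7, and the 2 pulldowns correlated less (r = 0.623 across genes) than the 2 inputs (r = 0.838). All 10 regulators passed the filter on low counts, with 21 to 21977 reads in the pulldowns and 69 to 49181 reads in the inputs, where 3 counts would be at most 3.05 CPM. Ovary markers were present in every library, with 4 of 6 germline genes matched and none of them at 0 in all 4 libraries. The 6 markers of ovarian soma, yolk protein and vitelline membrane genes of follicle cells among them, summed to 117936 and 17171 CPM in pulldowns 1 and 3 and to 40013 and 11456 CPM in inputs 1 and 3. The 4 germline markers summed to 1396 and 1701 CPM in the pulldowns and to 1826 and 2611 CPM in the inputs. Of 5 testis and sperm markers 4 were at 0 in all 4 libraries, and fat body, hemocyte and gut lists summed to at most 22.6 CPM in any library, while 4 muscle genes summed to between 125.8 and 324.1 CPM.

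CAG repeats in coding sequences are among the features the study examined, and the coding sequence of each regulator was read for runs of CAG codons, which encode glutamine. None of the 10 holds 5 or more CAG codons in a row, as 337 (4.95%) of 6809 tested genes with a coding sequence do. Runs of at least 2 were found in 6 of the 10, against 54.9% of those tested genes, and a run of 4 only in stg among the regulators, against 8.36% with at least 4. The windows below are shown because they hold the longest in-frame run of these 6 genes, in capitals, with 12 coding bases on either side, 5′ to 3′ on the coding strand of dm6.
stg: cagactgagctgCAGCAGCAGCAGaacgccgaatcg
CycE: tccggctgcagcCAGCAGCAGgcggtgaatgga
CycA: gaggatgagcacCAGCAGccggatattaat
CycB3: catcatcagctgCAGCAGgcagtgaatccc
cort: cagtttagcagcCAGCAGggcacaagatcc
png: agggatgtcatcCAGCAGctgccgtcaggc
The windows lie at chr3R:29252914-29252949 (stg, codons 361 to 364), chr2L:15730357-15730389 (CycE, codons 276 to 278), chr3L:11827688-11827717 (CycA), chr3R:24870454-24870483 (CycB3), chr2L:6676055-6676084 (cort) and chrX:1357219-1357248 (png), all on the minus strand. Pseudouridine stands in place of uridine, written T in the DNA, and T made up 17.3% of the coding bases of stg and 18.9% of those of png, against 26.8% in Cdk1, where the median of tested genes was 20.2%. The letters TNTAA or TNTAG, which the pseudouridine synthase Pus7 of yeast favors (with U for T), were searched on the coding strand and occurred in 82.98% of tested coding sequences. They were found 4 times in Cdk1, 6 times in fzy, 2 times in png and 0 times in stg. Per kilobase of coding sequence these were 4.49, 3.80, 2.29 and 0, against a median of 1.895 over tested genes. The other regulators ranged from 1.16 (CycB3) to 3.45 (cort) per kilobase.

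To ask how abundant each mRNA was before the pulldown, levels in the inputs were compared as CPM per kilobase of merged exons (RPKM). CycB was the most abundant, at 1500 RPKM in input 1 and 1272 RPKM in input 3, and it took 51.4% and 55.8% of all reads of the 10 genes. It stood at percentile 99.8 and 99.9 of the tested genes by CPM, and above CycA at 390.8 and 578.0 RPKM without overlap. CycA, stg, CycB3 and Cdk1 came next in order of their means, and each overlapped its neighbor in that order. Cdk1, at 161.5 and 127.2 RPKM, lay above CycE, at 92.6 and 50.8 RPKM, without overlap. CycE overlapped png (58.6 and 45.1 RPKM), and png overlapped fzy (46.6 and 48.1 RPKM). The least abundant were twe, at 27.4 and 45.7 RPKM, and cort, at 9.82 and 24.3 RPKM in inputs 1 and 3. The range of twe lay below that of fzy and above that of cort.

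**Figure D1:**
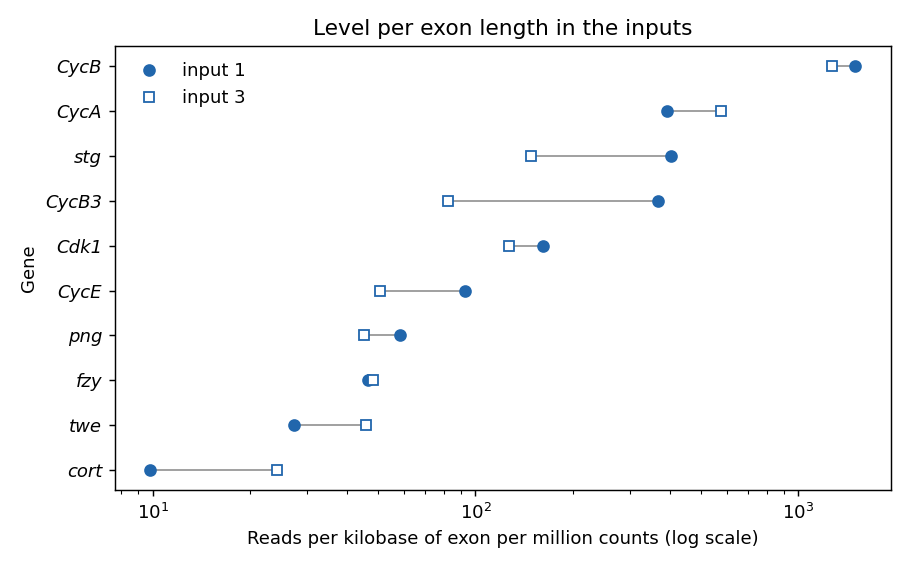
Level of the 10 regulators in the 2 inputs, in RPKM on a log scale, ordered by mean. Filled circles are input 1 and open squares input 3. CycB3 and stg have the widest gaps toward input 1, and cort and twe the widest toward input 3.

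The 2 inputs differed by more than the 2-fold mark for 3 of the 10 genes. CycB3, a cyclin of mitosis and female meiosis, had 1057 CPM in input 1 and 236.6 CPM in input 3, a 4.47-fold difference. For stg the values were 1234 and 455.9 CPM, a 2.71-fold difference in the same direction. The meiotic APC/C activator cort went the other way, with 16.3 CPM in input 1 and 40.2 CPM in input 3. Of all tested genes 7.90% had at least 2-fold more CPM in input 1, as CycB3 and stg did, and 33.5% at least 2-fold less, as cort did. The summed somatic markers above were also higher in input 1 and the summed germline markers lower, and their part in these differences was not tested. In ovaries, fewer cells of a type and less RNA per cell cannot be told apart. The 2 pulldowns differed too, and for CycB (CV 86.8% between pulldowns, 11.6% between inputs), CycA (68.4%, 27.3%) and twe (75.3%, 35.4%) by more than the inputs did. The same held for fzy (20.4%, 2.29%) and Cdk1 (19.3%, 16.8%).

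No regulator passed the test between pulldown and input. In edgeR's quasi-likelihood test, 0 of the 10 were called at 2-fold and an adjusted p-value under 0.05, as were 0 of 7085 tested genes (0.00%). The adjusted p-value was 0.9999 for each of the 10, and 0 of them had an unadjusted p under 0.05, against 146 tested genes (2.06%). DESeq2 called 0 of the 10 as well, and 1 higher and 1 lower gene in all. Together the 10 genes took 0.302% and 0.598% of the counts in pulldowns 1 and 3, against 0.889% and 0.695% in inputs 1 and 3. On total counts, their median log2 ratios of pulldown to input were -0.60 and 0.041 in replicates 1 and 3. Those of all tested genes were -0.70 and -0.12. The sum of the germline markers above was also lower in the pulldown of each pair, and that of the somatic markers higher. Single markers differed from these sums. In replicate 3, log2 ratios after edgeR's scaling of library sizes were -0.33 (Fas3), -0.27 (tj), -0.27 (Yp3), 0.016 (Yp2), 0.77 (Yp1) and 1.22 (Vm26Aa). For the germline markers they were -1.73 (orb), -0.92 (bcd), -0.30 (osk) and 0.15 (grk). In replicate 1 the germline markers were at 0.18 (orb), -1.21 (bcd), 0.039 (osk) and -3.69 (grk). The somatic markers there ranged from 0.33 (Fas3) to 2.26 (Yp2). The listed germline marker nos was not matched and is not in the sums, but nanos was tested, at -2.68 and -0.50 in replicates 1 and 3. The part of these markers in the values below was not tested.

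Log2 fold changes were above 0 for 6 regulators (46.2% of tested genes) and below 0 for 4, with a median of 0.041 beside -0.070 over all tested genes. Within pairs, on the TMM scale (CPM after edgeR's trimmed-mean scaling of library sizes), 8 of the 10 had ratios of the same sign in both replicates (53.6% of tested genes), 4 of them higher (20.5%) and 4 lower (33.1%) in the pulldown, and on total counts the number was 5. At least 2-fold lower were 3 regulators in replicate 1 (35.3%) and 0 in replicate 3 (13.7%), and at least 2-fold higher was 1 in each, png (16.3% and 7.99%). On that scale both pulldowns were above both inputs for 2 regulators, fzy and png (10.2%), and below for 3, CycA, CycB and CycE (17.2%). Nothing in the sources says that the replicates came from separate cohorts of flies, so the p-values measure only the spread between these libraries.

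**Figure D2:**
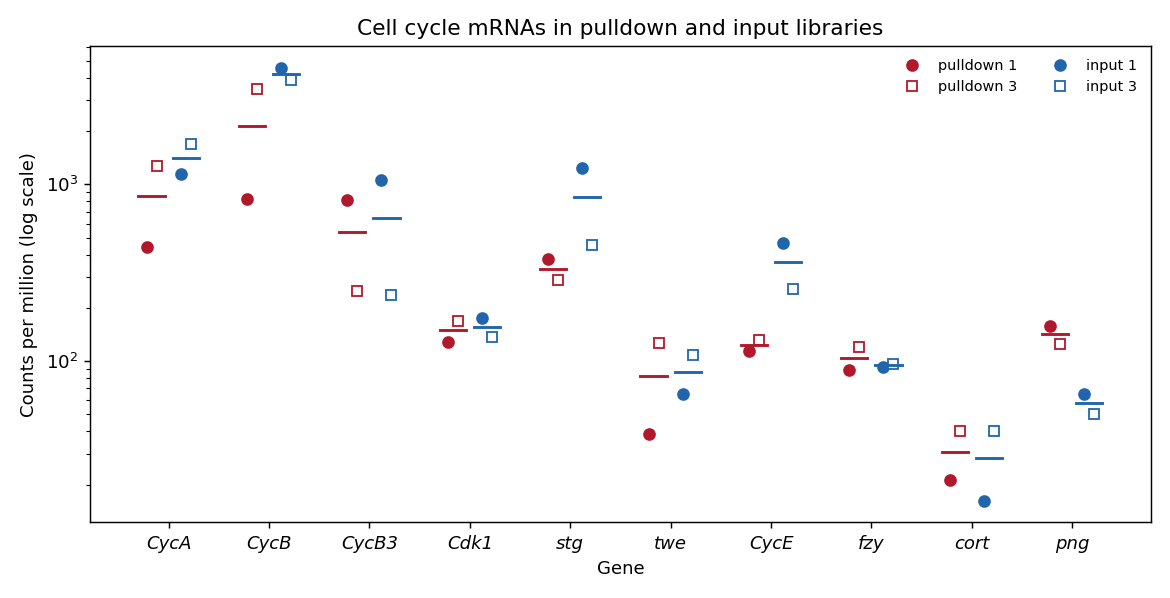
CPM of the 10 regulators on a log scale, pulldowns in red and inputs in blue, with filled circles for replicate 1, open squares for replicate 3 and a bar for the mean of the 2 libraries. Both pulldowns lie above both inputs for png (6.21% of tested genes) and below both for CycB, CycE and stg (20.0%). The libraries overlap for the other 6.

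Of the 10 genes, png had the highest pulldown to input ratio in both replicates. The gene of the PAN GU kinase subunit (FBgn0000826, X, 1356488 to 1357601, minus strand, a single exon) had 158.4 CPM in pulldown 1 and 124.6 CPM in pulldown 3, against 65.2 CPM in input 1 and 50.3 CPM in input 3. Both pulldowns were thus above both inputs on plain CPM, where 6.21% of tested genes had that order. The ratio was 2.43 in replicate 1 (95% exact interval 1.98 to 2.96, counting error only) and 2.48 in replicate 3 (2.23 to 2.75). These were at percentile 92.8 and 96.6 of the ratios of all tested genes in each pair. On the TMM scale, png was the 1 regulator at least 2-fold higher in both pairs, as were 1.61% of tested genes. The log2 fold change of 1.57 (SE 0.71) did not pass the edgeR test (adjusted p-value 0.9999). It was 0.92 when pulldown 1 was left out and 2.02 when pulldown 3 was left out.

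The partners of png were below input in replicate 1 and above it in replicate 3. For gnu, the activating subunit of the kinase complex, pulldowns 1 and 3 had 283.3 and 376.1 CPM, against 1025 and 305.3 CPM in inputs 1 and 3. For plu, the ankyrin repeat subunit, the values were 24.4 and 70.5 CPM in the pulldowns, against 89.0 and 29.7 CPM in the inputs. Both partners had log2 ratios of -1.46 to -1.45 in replicate 1 and of 0.36 (gnu) and 1.29 (plu) in replicate 3, where png was at 1.36. Per exon length, png stood at 0.463 and 0.275 of gnu in pulldowns 1 and 3, against 0.0527 and 0.136 in inputs 1 and 3. This ratio within a library does not depend on normalization, and it was higher in the pulldown of each pair. The same ratio of png to plu was 3.59 and 0.977 in pulldowns 1 and 3, against 0.405 and 0.936 in inputs 1 and 3, at 8.87 of its input value in replicate 1 and at 1.04 in replicate 3.

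Among the mitotic cyclins each pulldown was below its own input for CycB and CycA, by more for CycB in replicate 1 and by more for CycA in replicate 3. CycB (FBgn0000405, 2R, 22803521 to 22806948), whose protein is the main partner of Cdk1 in M phase, had 830.5 CPM in pulldown 1 and 3467 CPM in pulldown 3, against 4571 CPM in input 1 and 3877 CPM in input 3. Both pulldowns were below both inputs, as in 20.0% of tested genes. Pulldown 1 held 18.2% of its input level, whereas pulldown 3 held 89.4% (interval of the ratio 0.880 to 0.909, counting error only). The log2 fold change was -0.97 (SE 0.96, adjusted p-value 0.9999, edgeR), and -0.47 without pulldown 1.

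CycA (FBgn0000404, 3L, 11826719 to 11833578), a cyclin needed for mitosis, had 440.6 and 1267 CPM in pulldowns 1 and 3, against 1141 and 1687 CPM in inputs 1 and 3. Pulldown 3 lay between the 2 inputs on plain CPM, although each pulldown was below its own input, at 38.6% and 75.1%. CycB3 (FBgn0015625, 3R, 24867934 to 24870816) had 818.3 and 250.5 CPM in the pulldowns, against 1057 and 236.6 CPM in the inputs. Its pulldowns followed their own inputs more closely than each other, with ratios of 0.774 and 1.06, and its log2 fold change was 0.046 (SE 1.06). Pulldown 1 thus held 3.27 times the CycB3 CPM of pulldown 3, and input 1 held 4.47 times that of input 3.

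Cdk1 (FBgn0004106, 2L, 10384739 to 10386262), the kinase that these cyclins activate, had 128.9 and 169.6 CPM in pulldowns 1 and 3, against 174.8 and 137.6 CPM in inputs 1 and 3. The groups overlapped, and the means were 149.3 ± 28.8 CPM in the pulldowns and 156.2 ± 26.2 CPM in the inputs (SD, n = 2 each). The ratio of CycB to Cdk1 within a library was at 0.246 of its input value in replicate 1 and at 0.726 in replicate 3.

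For the Cdc25 phosphatases, stg was lower in the pulldowns on plain CPM and twe overlapped. On the TMM scale the libraries of stg overlapped too, with log2 ratios of -1.30 and -0.62 in replicates 1 and 3. stg (FBgn0003525, 3R, 29251826 to 29255800) had 379.7 and 286.0 CPM in pulldowns 1 and 3, against 1234 and 455.9 CPM in inputs 1 and 3. The pulldowns differed from each other by 1.33 times and the inputs by 2.71 times. On plain CPM both pulldowns lay below both inputs, as in 20.0% of tested genes. Pulldown 1 held 30.8% of its input level (ratio interval 0.276 to 0.342) and pulldown 3 held 62.7% (0.595 to 0.662). The log2 fold change of -1.12 (SE 0.84) missed the threshold. It was 0.022 without input 1, where pulldown 1 has no input of its own. It was -0.62 without both libraries of replicate 1 and -0.96 with the replicate block. Its size therefore depends on input 1 and on the pairing.

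twe (FBgn0002673, 2L, 16259414 to 16261877) had 38.6 and 126.4 CPM in pulldowns 1 and 3, against 65.2 and 108.8 CPM in inputs 1 and 3. Its ratio was 0.591 in replicate 1 and 1.16 in replicate 3, in opposite directions. With the replicate number as a block its log2 fold change of 0.037 turned to -0.031. Per exon length, stg exceeded twe by 7.64 and 1.76 times in pulldowns 1 and 3, against 14.7 and 3.25 times in inputs 1 and 3. The mitotic to meiotic phosphatase ratio was therefore at 0.520 of its input value in replicate 1 and at 0.540 in replicate 3. Of the exon bases of twe 98 (4.12%) are shared with EndoGI on the other strand, and its counts are uncertain there because the strand setting of the counting is not given in the sources used here.

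CycE, whose cyclin drives entry into S phase and the endocycles of nurse and follicle cells, had the lowest ratio of the 10 in replicate 3. The gene (FBgn0010382, 2L, 15727581 to 15748150) had 113.7 and 131.9 CPM in pulldowns 1 and 3, against 467.3 and 256.4 CPM in inputs 1 and 3. The pulldowns were close to each other, at 122.8 ± 12.9 CPM, and both lay below the inputs, at 361.8 ± 149.1 CPM (SD, n = 2 each). That order held for 20.0% of tested genes. The ratio was 0.243 in replicate 1 (interval 0.199 to 0.294) and 0.514 in replicate 3 (0.476 to 0.555), at percentiles 25.9 and 15.9 of all tested genes. On the TMM scale the log2 ratios were -1.63 and -0.90, so CycE was at least 2-fold lower in 1 of its 2 pairs, and 0 regulators were at least 2-fold lower in both (6.41% of tested genes were). Its log2 fold change was -1.38 (SE 0.69, unadjusted p = 0.0796 and adjusted p-value 0.9999 in edgeR). Of its 5047 exon bases 150 overlap the antisense RNA asRNA:CR44866 and 98 overlap lncRNA:CR44974, where reads cannot be assigned without strand.

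The APC/C activators had plain CPM ratios between 0.960 and 1.31. fzy, the Cdc20 of the fly (FBgn0001086, 2L, 16310956 to 16313097, plus strand), had 89.3 and 119.4 CPM in pulldowns 1 and 3, against 93.0 and 96.1 CPM in inputs 1 and 3, with ratios of 0.960 (interval 0.753 to 1.21) and 1.24 (1.13 to 1.36). It was the steadiest of the 10 between inputs, which differed by 1.03 times. cort (FBgn0000351, 2L, 6674682 to 6676635) had 21.3 and 40.2 CPM in the pulldowns, against 16.3 and 40.2 CPM in the inputs, with ratios of 1.31 (0.764 to 2.16) and 1.00 (0.858 to 1.17). On the TMM scale the log2 ratios in replicates 1 and 3 were 0.34 and 0.37 for fzy, whose pulldowns were both above both inputs there, and 0.78 and 0.055 for cort. Both plain CPM intervals of cort include 1. The one in replicate 1 is wide and rests on 21 reads in the pulldown. The narrower one in replicate 3 rests on 255 reads in the pulldown and 510 in the input. Exon bases are shared on the other strand with cact for fzy (62 bases) and with cup and CG34310 for cort (99 bases each), where the counts are uncertain.

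**Figure D3:**
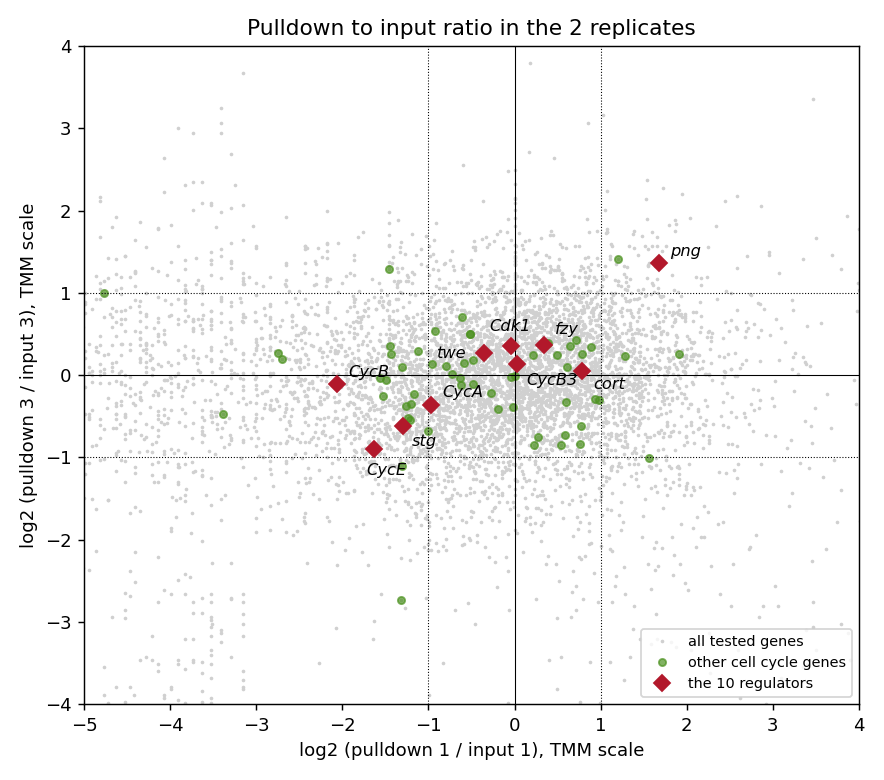
Log2 ratio of pulldown to input in replicate 1 (horizontal) and replicate 3 (vertical) on the TMM scale, for all tested genes in gray, other cell cycle genes in green and the 10 regulators in red. Dotted lines mark 2-fold, and 685 tested genes, among them 4 other cell cycle genes, lie outside the axes. The regulator png sits at 1.68 and 1.36, CycE at -1.63 and -0.90, and CycB at -2.06 and -0.11.

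The wider cell cycle machinery was described with 63 other genes listed by role. Of these 62 were tested (lmgA had 0 reads in all libraries), 0 were called and 0 had an unadjusted p under 0.05 in edgeR, and 23 had a log2 fold change above 0, with a median of -0.22 beside -0.070 over all tested genes. On the TMM scale 1 of the 62 was past 2-fold in both pairs on the higher side, and 3 on the lower side, beside 1.61% and 6.41% of tested genes.

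The higher gene was aurB, the kinase of the chromosomal passenger complex, with 58.9 and 101.6 CPM in pulldowns 1 and 3, against 33.7 and 39.4 CPM in inputs 1 and 3 (log2 fold change 1.31, SE 0.73), a plain CPM ratio of 1.75 in replicate 1 and 2.58 in replicate 3. Its partners in that complex had log2 ratios of 0.89 and 0.34 (Incenp), 0.38 and 0.39 (Det) and -0.92 and 0.53 (borr) in replicates 1 and 3. The lower genes were E2f1, Wee1 and tws. E2f1, the activating E2F of G1/S, which has CycE among its targets, had 187.8 and 29.7 CPM in pulldowns 1 and 3, against 618.0 and 206.6 CPM in inputs 1 and 3. tws, a regulatory subunit of the phosphatase PP2A, had 173.6 and 170.1 CPM in the pulldowns, against 566.9 and 381.6 CPM in the inputs.

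Wee1, the kinase that opposes Cdc25 on Cdk1, had 0 and 180 reads in pulldowns 1 and 3, against 193 and 836 reads in inputs 1 and 3. Its plain CPM in input 1 was 14.9 times the floor of 3 counts in pulldown 1. The exact interval of the ratio in replicate 1 reached up to 0.0832 (counting error only). Pulldown 3 held 0.431 of its input level. Wee1 passed the edgeR test when pulldown 3 was left out (adjusted p-value 0.00743), a fit on 1 pulldown that called 48 higher and 431 lower of 7341 genes, and not when pulldown 1 was left out (adjusted p-value 0.9987). CycJ, Myt1, APC4 and APC10 also had 0 reads in pulldown 1, with CPM ratios between 0.906 and 1.95 in replicate 3. Pulldown 1 was the shallowest library, with reads in 6064 genes against 7839 genes in input 1. The share of all tested genes at 0 there was not computed.

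**Figure D4:**
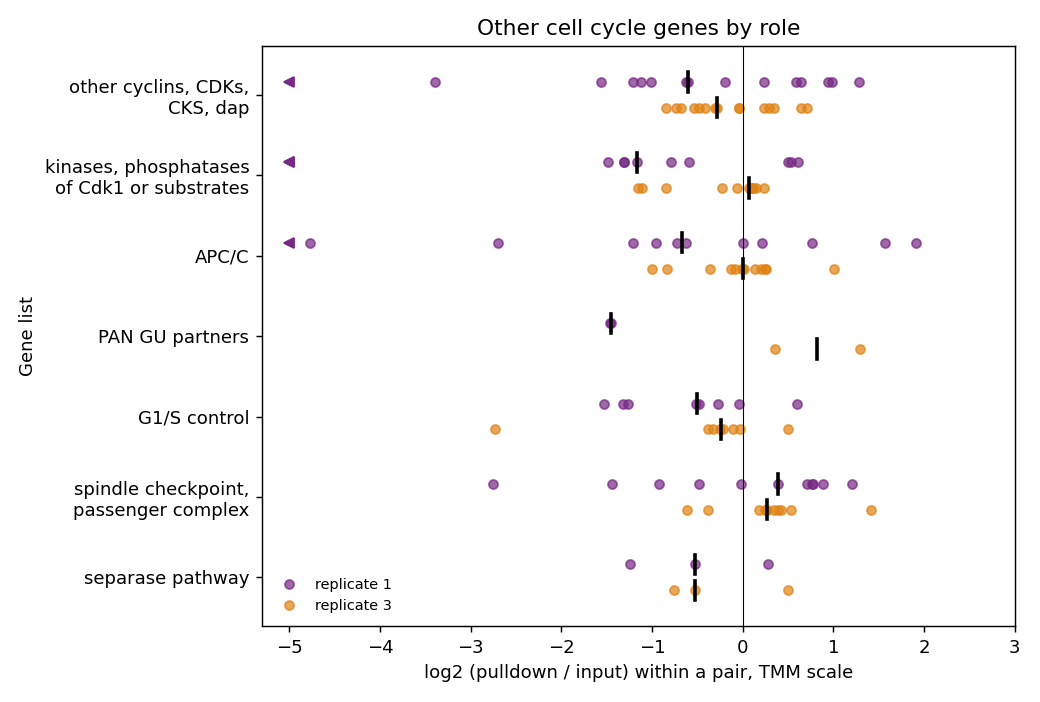
Log2 ratio of pulldown to input within each pair, on the TMM scale, for the 62 tested cell cycle genes other than the 10 regulators, by role. Purple is replicate 1, orange replicate 3, black ticks are medians, and triangles at the left edge stand for 4 of the 5 genes with 0 reads in pulldown 1, whose ratios fall below the axis. Replicate 1 spreads more widely than replicate 3, and the PAN GU partners gnu and plu change side between replicates.

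By role, the median log2 ratios in replicates 1 and 3 were -0.61 and -0.29 for 15 other cyclins, CDKs, CKS proteins and the CDK inhibitor dap. They were -1.16 and 0.071 for 11 kinases and phosphatases around Cdk1, and -0.67 and 0.0031 for 12 APC/C genes. For 8 genes of G1/S control they were -0.50 and -0.23, and for 11 genes of the spindle checkpoint and passenger complex 0.38 and 0.27. For 3 genes of the separase pathway they were -0.52 and -0.52, and for the PAN GU partners gnu and plu -1.46 and 0.82. All tested genes had medians of -0.31 and -0.062 on the same scale. In the checkpoint and passenger list, whose medians were above those of all genes in both pairs, as were those of the 10 regulators (-0.19 and 0.096), values were above 0 for 6 of 11 genes in replicate 1 and 9 of 11 in replicate 3, beside 40.8% and 46.3% of tested genes. On total counts its medians were -0.016 and 0.21, and those of all tested genes -0.70 and -0.12. It was singled out here for its medians, and the lists were not tested against each other.

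Among the genes most like the highest and the lowest regulator across the 4 libraries, by Euclidean distance of log2 CPM, were ATPsynC (0.88) and Rack1 (1.25) for CycB and sni (0.32) for cort. ATPsynC had 1169 and 3425 CPM in pulldowns 1 and 3, against 3036 and 2884 CPM in inputs 1 and 3. sni had 25.4 and 37.2 CPM in the pulldowns, against 16.7 and 35.9 CPM in the inputs.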

How the data were processed

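The values used were raw counts of reads per gene, as deposited by the authors. Per the submitters' processing notes and the methods, single-end reads were aligned to dm6 with HISAT2 2.1.0, guided by RefSeq transcripts, and counted with featureCounts 1.4.6. The strand setting is not given in the sources used here. Of the 17023 genes 16647 (97.8%) were matched by identifier to Ensembl release 115 for symbols, positions and exon lengths, and coding sequences were read from the dm6 genome. The members and gene lists were chosen with earlier results of these data known.

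The main test was the two-sided quasi-likelihood test of edgeR 4.0.16 in R 4.3.3, after filterByExpr and TMM, with group as the only term and Benjamini-Hochberg adjustment over all 7085 tested genes. Calls required at least 2-fold and an adjusted p-value below 0.05. Pair ratios used log2 CPM with a prior count of 2. The edgeR test was tried on simulated counts with 200 genes changed 16-fold. It recovered 200 of them at a dispersion (spread between libraries) of 0.05. At a dispersion of 0.5 it recovered 60, and 23 with the replicate block. The common dispersion of these data was 0.539, so the absence of calls does not show that levels were equal. Same-numbered libraries were paired because the methods take the input from the homogenate of the pulldown. Their deviations from group means correlated at r = 0.414. Replicate 1 was the shallower library in both groups, so in this value pairing and shared depth cannot be told apart. Intervals on ratios of counts are exact (Clopper-Pearson, 95%) and cover counting error only. Alternatives were total-count and upper-quartile normalization, the replicate block, no filter, a minimum of 10 counts in each library, DESeq2 1.42.0, a prior count of 0.5, coding length, no fold threshold, and leaving out each library or pair. Pair ratios on total counts and plain CPM ratios were added after seeing the data. Named genes were the 10 members, other listed cell cycle genes at least 2-fold in 1 direction in both pairs, and the 2 genes nearest to the members of highest and lowest input CPM, of which 1 is not reported here. Any other gene was named to complete a complex or after its values were seen.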

Additional observations from a re-analysis of the deposited data

How the results depend on the processing

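No regulator was called under any of the 10 alternatives to the edgeR fit, which included the replicate block, DESeq2 and leaving out each library. Calls over all genes were 2 higher without a filter and 1 higher and 1 lower with DESeq2, and ranged from 0 to 48 higher and 0 to 431 lower as each library was left out. The highest of these came without pulldown 3, where the spread rests on the inputs alone. Without pulldown 1 they were 2 and 24. With the replicate block 0 genes were called, and leaving out a whole pair gave values with no test. Where 1 library was left, it was assumed to vary like the other group.

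The median log2 fold change of the 10 regulators was -0.17 on total counts, -0.013 with at least 10 counts in every library and -0.21 from pair ratios on total counts, and ranged from -0.38 to 0.096 as libraries or pairs were left out, so it has no settled sign. For the other cell cycle genes that range was -0.60 to -0.016. Total counts in place of TMM moved the median pair ratio of all tested genes to -0.70 and -0.12, against -0.31 and -0.062. On that scale 5 regulators, not 8, had the same sign in both pairs. Their median input level was 172.4 RPKM on coding length, against 108.0 on exon length. Direction reversed for CycB3 (-0.28 on total counts, -0.051 with at least 10 counts), Cdk1 (-0.064 on total counts) and twe (-0.070 on total counts, -0.00075 without a filter, -0.031 with the replicate block). Leaving out libraries or pairs gave -1.66 to 1.77 for CycB3, -0.21 to 0.50 for Cdk1, -1.82 to 0.022 for stg, -0.54 to 0.43 for twe and -0.054 to 0.87 for cort. png stayed between 0.92 and 2.02, CycE between -1.89 and -0.66 and CycB between -2.06 and -0.11. The cause was not tested. Among the 10, cort and twe had the fewest reads in pulldown 1, at 21 and 38, so counting error is largest for them. The SE of their log2 fold changes was 1.02 and 0.69, beside 1.06 for CycB3 with 806 reads there. The part of depth in these ranges was not tested.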

Other observations

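Other cell cycle genes differed between the 2 inputs too, chosen here after their values were seen. At least 2-fold higher in input 1 than in input 3 were 9 of 63 genes (7.90% of all tested genes), among them gnu (1025 and 305.3 CPM), E2f1 (618.0 and 206.6 CPM), the APC/C activator fzr (316.3 and 112.2 CPM) and Cdk2, the partner of cyclin E (242.4 and 95.2 CPM). At least 2-fold lower in input 1 were 13 genes (33.5% of all tested genes), among them the checkpoint kinase BubR1 (12.2 and 98.7 CPM), the APC/C subunit Cdc16 (9.42 and 71.1 CPM) and gwl, the Greatwall kinase (168.6 and 476.1 CPM). The inputs are replicates of 1 group, and they were not tested against each other.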
